A study of Mus musculus with 9 samples.

Results

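Endothelial genes were followed in neutrophil preparations that had been sorted from mouse skin lesions and from the skin around them. The 10 genes were Egfl7, Cdh5, Pecam1, Esam, Kdr, Flt1, Tie1, Tek, Eng and Vwf. All probes that carry 1 of these names in the scanner files were taken, which gave 14 of 55681 probes and 10 of 34797 gene names on the array. Each level below is a log2 fluorescence value from the table that the authors deposited, unless the scanner signal is named. In the tests each probe was compared with itself between groups. Probes were put together only in summed levels of lists, medians over probes and correlations of profiles.

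Endothelial cells line blood vessels and hold together through the adherens junction protein VE-cadherin (Cdh5) and the junction proteins CD31 (Pecam1) and ESAM (Esam). They read growth signals through the VEGF receptors Kdr and Flt1, the angiopoietin receptor Tek with its partner Tie1, and the TGF-beta and BMP co-receptor endoglin (Eng), and they secrete Egfl7 and store von Willebrand factor (Vwf). Several of these genes are not limited to the endothelium, since leukocytes and platelets carry Pecam1, megakaryocytes make Vwf and Esam, and activated macrophages can carry Eng and Flt1. New vessels are a known part of papilloma and carcinoma growth in skin.

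The mice were of the FVB/N strain, had DMBA applied when 6 and 13 weeks old, and received PMA repeatedly from week 1 until week 18 to 20. DMBA is a carcinogen that starts skin papillomas and PMA is a phorbol ester that drives them on to carcinoma, and the skin used as the control had the same treatment. Neutrophils came from papilloma skin (2 arrays), tumor skin (2 arrays), papilloma (3 arrays) and tumor (2 arrays), each array holding material pooled from several mice, and were sorted as Gr-1 bright cells with a stated purity above 98%. The methods state that lesions were digested with collagenase IV, dispase II and DNase I and skin with collagenase IV alone, so tissue of origin and digestion cannot be told apart. Fewer endothelial cells, less endothelial RNA per cell and expression of these genes by neutrophils or other cells cannot be told apart in such pooled RNA either.

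The sorted cells carried the neutrophil genes that their label calls for. The calprotectin subunit genes S100a8 and S100a9 lay at log2 levels of 17.88 to 18.22 and 18.45 to 18.63 over the 9 columns, the G-CSF receptor gene Csf3r at 16.68 to 16.89, and Ly6g, the antigen of the sorting antibody, at 9.30 to 12.65. Doubts apply to 5 of the 9 arrays. On papilloma skin 1, tumor skin 1 and tumor 1 the spike-in slope was 0.678, 0.876 and 0.894 against 1.04 to 1.06 on the other arrays, and 90.7% to 94.97% of probes were well above background against 43.5% to 63.5%. The value table columns of papilloma skin 1 and tumor 1 ranked the probes more like the scanner file of tumor 2 (Spearman's rho 0.923 and 0.946) than like their own (0.587 and 0.825). The columns of papilloma 2 and papilloma 3 each lay closest to the scanner file of the other (0.981 and 0.958), and the own rho of all columns other than papilloma skin 1 and tumor 1 was 0.930 to 0.980. Differences of the endothelial probes are therefore also given without the columns of papilloma skin 1 and tumor 1, and for the scanner signal without the 3 arrays of low spike-in slope.

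Most of the endothelial genes were higher in papilloma neutrophil preparations than in those of papilloma skin. Of the 14 probes, 8 rose, covering 7 of the 10 genes (Egfl7, Cdh5, Pecam1, Esam, Kdr, Flt1 and Tie1), and none fell, at an adjusted p of at most 0.05 (limma, Benjamini-Hochberg over all probes), an absolute log2 difference of at least 1 and a mean level of at least 6, together referred to as called. Over all probes 2.18% were called higher and 1.00% lower in this comparison. The median log2 difference of the 14 probes was 1.57, beside -0.01 over all probes, and 13 of 14 differences were positive. Every papilloma column exceeded every papilloma skin column for 10 of the 14 probes, an arrangement that held for 19.8% of all probes. Of the 14 probes, 12 passed the level minimum, and the probe of Tek and 1 probe of Flt1 did not. All arrays numbered 1 shared a slide, and with slide as a block, or replicate number as a block, none of the 14 probes was called (smallest adjusted p 0.0509 and 0.0633), at medians of 1.48 and 1.54.

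Cdh5, Egfl7, Esam and Flt1 were higher in tumor preparations than in those of tumor skin. Here 4 probes rose, those of Cdh5, Egfl7 and Esam and 1 of Flt1, and none fell, where 2.71% of all probes were called higher and 1.51% lower. The median log2 difference of the 14 probes was 0.96, beside -0.02 over all probes, and 11 of 14 were positive. This median was 0.53 without tumor 2 and 1.44 without tumor 1. Every tumor column exceeded every tumor skin column for 9 of the 14 probes and for 25.7% of all probes. With slide or replicate number as a block none of the 14 was called here either (smallest adjusted p 0.155 and 0.105).

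Each fit that left out a column had fewer residual degrees of freedom for all probes, and its share of all probes called is not given here. The median log2 difference for papilloma was 1.37 without papilloma skin 2 and 1.97 without papilloma skin 1, beside 1.57 with all columns. A column of a group outside the comparison cannot change the log2 difference, only the shared spread, the degrees of freedom and the adjustment over all probes. The count of called probes changed with the columns left out, also with such columns. For papilloma against its skin it was 8, but 1 without papilloma skin 2 (Pecam1), 5 without papilloma 1 and 5 without papilloma 3. For tumor against its skin it was 4, but 0 without tumor skin 2, 0 without tumor 2, 2 without tumor skin 1 (Esam higher and Kdr A_55_P2094469 lower), 2 without papilloma 1 (Cdh5 higher and the same Kdr probe lower) and 1 without papilloma 2 or papilloma 3 (Cdh5). Without the doubtful columns papilloma skin 1 and tumor 1, papilloma skin and tumor held 1 array each, so calls are not given for that fit. The log2 differences for papilloma were then 3.09 for Cdh5, 3.44 for Egfl7, 2.74 for Esam, and 2.62 and 2.31 for 2 probes of Flt1. For Kdr A_51_P316553, Tie1, Pecam1 and Eng they were 2.50, 1.89, 1.51 and 2.05. For tumor they were 3.07 for Cdh5, 3.14 for Egfl7, 1.83 for Esam, 2.01 for 1 probe of Flt1 and 1.64 for Eng.

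**Figure D1:**
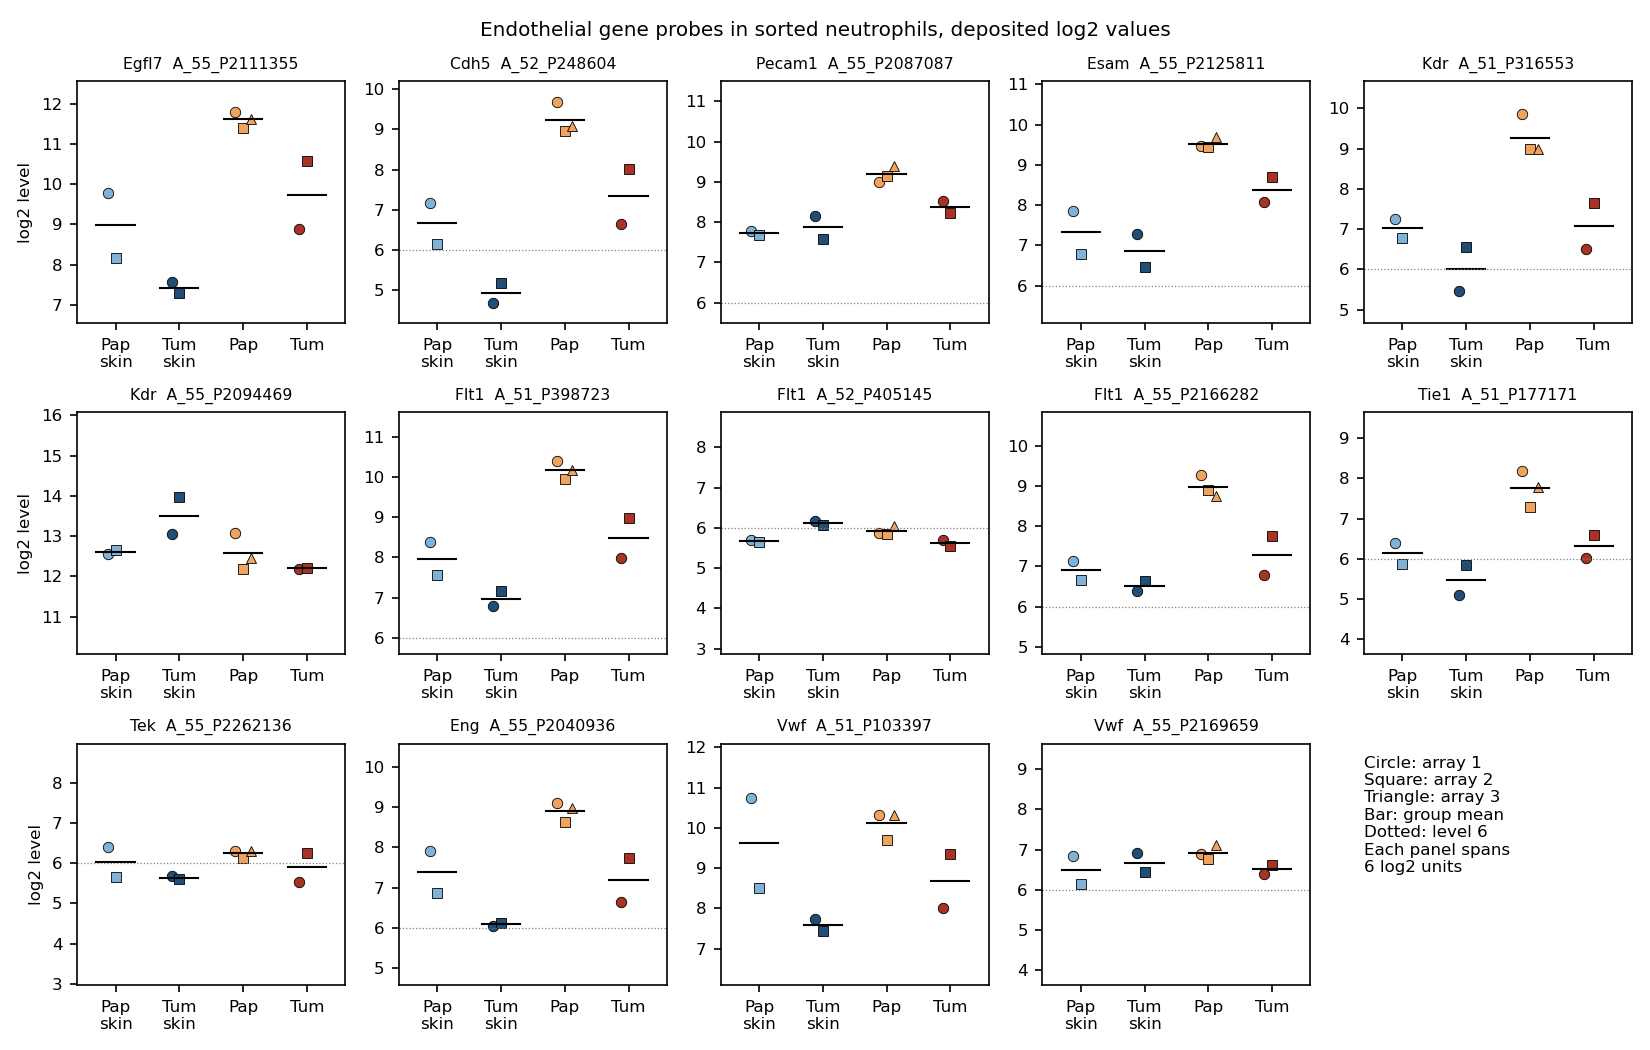
Log2 level of each of the 14 endothelial probes (y axis, deposited table, each panel spanning 6 log2 units) in papilloma skin, tumor skin, papilloma and tumor (x axis), with 1 symbol per array, a bar at the group mean and a dotted line at the level minimum of 6. Papilloma had the highest mean for 12 of 14 probes, and the exceptions were Kdr A_55_P2094469 and Flt1 A_52_P405145, both highest in tumor skin.

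Papilloma had the highest group mean for 12 of 14 probes, an order that 23.4% of all probes had, and tumor skin had the lowest for 10 of 14, against 31.7% of all probes. The full order papilloma, tumor, papilloma skin, tumor skin was that of Cdh5, Egfl7, Esam, Tie1, 1 probe of Kdr and 2 probes of Flt1. The comparison between the lesions put all 14 log2 differences of tumor versus papilloma below 0, with a median of -1.44 beside -0.02 over all probes. None of the 14 was called, and 10 had an unadjusted limma p under 0.05 against 14.4% of all probes, where 0.334% of all probes were called lower and 0.113% higher. Every tumor column lay below every papilloma column for 12 of the 14 probes and for 18.2% of all probes. In the quantile-normalized scanner signal the median was -0.66 (-0.12 over all probes), 1 difference was positive and 0 of 14 had an unadjusted p under 0.05 (2.32% of all probes). With the normexp background the median was -0.52, with 75th percentile scaling -1.07 (3 positive, 0.29 over all probes) and without the 3 arrays of low slope -1.48. This comparison shares the papilloma columns with that of papilloma and its skin. The Kdr probe A_51_P316553 had the lowest of these differences at -2.19 (SE 0.45, adjusted p 0.0934), and the Flt1 probe A_55_P2166282 the lowest adjusted p (0.057, at -1.70, SE 0.30).

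Between the surrounding skins, 10 of 14 probes had a lower mean in tumor skin than in papilloma skin, with a median log2 difference of -0.56, beside -0.01 over all probes. No probe was called, and 7 had an unadjusted limma p under 0.05 against 22.7% of all probes, where 0.138% of all probes were called higher and 0.122% lower. Every tumor skin column lay below every papilloma skin column for 8 of the 14 probes and for 24.7% of all probes. Without papilloma skin 1 the median was -0.27 and 1 probe had an unadjusted limma p under 0.05, and without papilloma skin 2 these were -0.96 and 8. The scanner fits gave medians of -0.30 to -0.10 with 9 arrays and -0.68 without the 3 of low slope, and 0 of the 14 had an unadjusted p under 0.05 in each (1.23% of all probes with quantile normalization of 9 arrays). The test of whether the lesion effect differed between the stages called none of the 14 probes, and 4 had an unadjusted limma p under 0.05 against 14.7% of all probes, where 0.0126% of all probes were called higher and 0.0144% lower. That difference, tumor effect minus papilloma effect, had a median of -0.69 over the 14 probes and 0.00 over all probes, and 12 of 14 were below 0. It was -0.26 without papilloma skin 2, where 5 of 14 were positive, -0.42 without tumor 1 and -1.02 without papilloma skin 1. In the scanner fits it was -0.78 to -0.42, and with quantile normalization of 9 arrays 0 of the 14 had an unadjusted p under 0.05, against 1.95% of all probes.

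**Figure D2:**
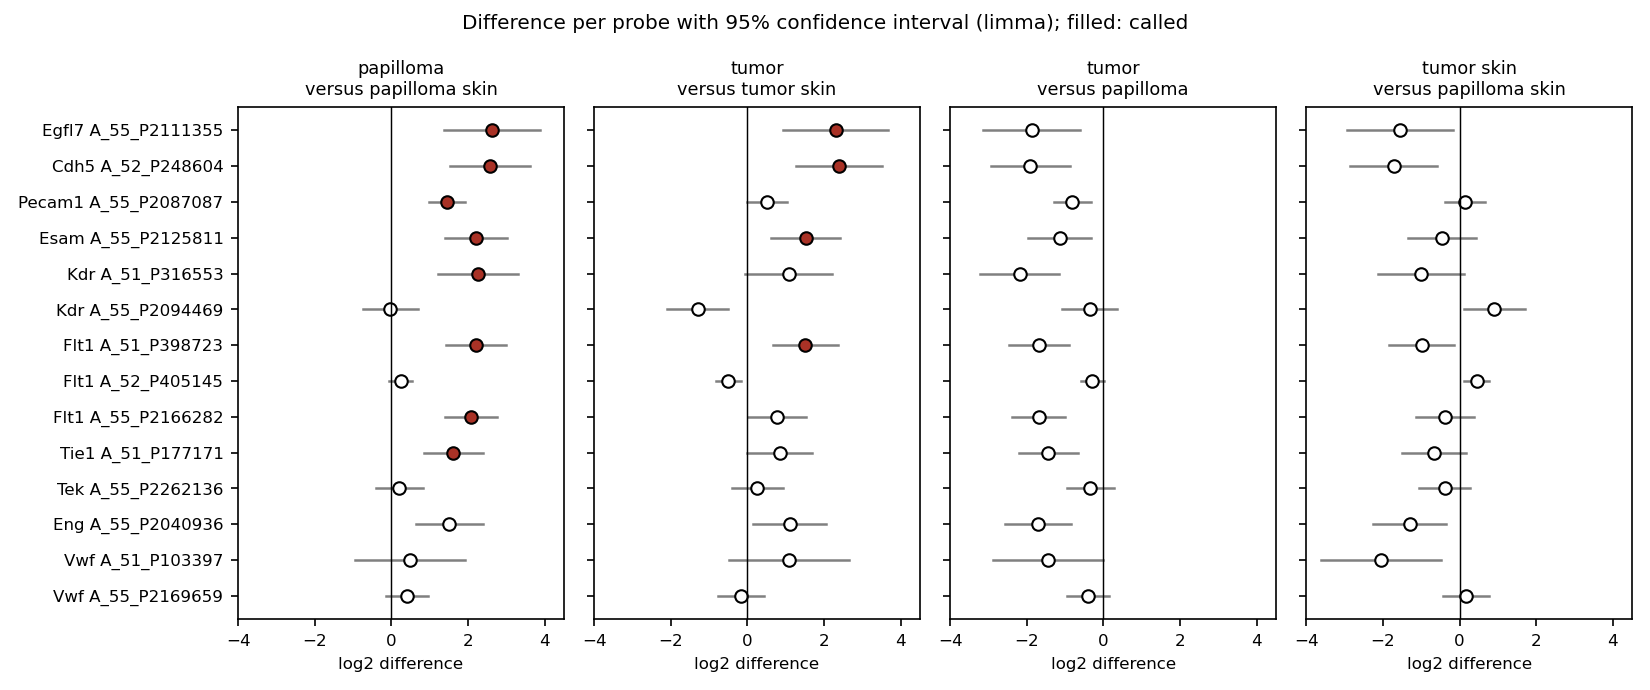
Log2 difference of each endothelial probe (x axis) in 4 comparisons, with the 95% confidence interval of the limma fit as a line and a filled circle where the probe was called. All 14 circles lie below 0 in tumor versus papilloma and none is filled there, while 8 are filled for papilloma against its skin and 4 for tumor against its skin.

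Egfl7, a secreted protein of the vessel wall, rose in both lesions. Its log2 levels were 9.79 and 8.17 in papilloma skin, 7.56 and 7.30 in tumor skin, 11.80, 11.40 and 11.63 in papilloma, and 8.89 and 10.58 in tumor. Papilloma stood above papilloma skin by 2.63 (SE 0.55, adjusted p 0.0286), a 6.19-fold difference, and tumor above tumor skin by 2.30 (SE 0.60, adjusted p 0.0497), a 4.92-fold difference. Without tumor 2 the tumor difference was 1.45 (adjusted p 0.253) and without tumor 1 it was 3.14, and it was called in 3 of the 9 fits that left out 1 column. The papilloma columns lay above all others, whereas tumor 1 lay below papilloma skin 1. Within slide 1 papilloma 1 exceeded papilloma skin 1 by 2.01 and tumor 1 exceeded tumor skin 1 by 1.33, and within slide 2 papilloma 2 exceeded papilloma skin 2 by 3.23.

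The Egfl7 transcript hosts miR-126a, a microRNA of endothelial cells. Its hairpin lies at chr2:26591357-26591429 on the plus strand of GRCm38.p6, inside the Egfl7 gene (chr2:26581083-26592682), and no probe on the array carries its name. The mature sequence from RefSeq is shown because both come from 1 gene, with the seed (bases 2 to 8) in capitals. The first 30 of the 60 bases of the Egfl7 probe (accession NM_178444, chr2:26448142-26448201, plus strand, mm9 as the scanner files give it) follow, and then the bases upstream of the outermost Egfl7 start (chr2:26580833-26581082, plus strand, GRCm38.p6, RefSeq), where capitals mark GGAA, the core of ETS factor motifs, on either strand (GGAA or TTCC). Adjacent matches run on without a gap.
mmu-miR-126a-3p: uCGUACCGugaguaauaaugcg
Egfl7 A_55_P2111355: cctgtctaagtggtaaggtggggattgtct
Egfl7 upstream 250 bases: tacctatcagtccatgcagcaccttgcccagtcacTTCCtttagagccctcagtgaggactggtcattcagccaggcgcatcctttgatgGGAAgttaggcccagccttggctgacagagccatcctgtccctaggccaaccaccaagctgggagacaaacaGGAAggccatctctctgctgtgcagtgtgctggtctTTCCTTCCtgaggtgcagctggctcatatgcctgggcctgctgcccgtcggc
The window held 5 matches. Of 32851 RefSeq promoter windows of this length 18.0% held as many or more, 93.4% held at least 1, and the median was 3. The later Egfl7 starts had 3 and 1 matches. A match describes letters and is not a binding site.

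The junction genes Cdh5, Esam and Pecam1 all rose in papilloma. Cdh5 levels were 7.18 and 6.15 in papilloma skin, 4.69 and 5.19 in tumor skin, 9.68, 8.95 and 9.08 in papilloma, and 6.65 and 8.01 in tumor. The differences were 2.57 (SE 0.45, adjusted p 0.0145) for papilloma over its skin and 2.39 (SE 0.49, adjusted p 0.0237) for tumor over its skin. Lesion and matching skin did not overlap at either stage. The skin values had weak support, because in each skin group the Cdh5 spot was well above background on 1 of 2 arrays, and on all arrays of papilloma and tumor. The skin arrays where it was so were papilloma skin 1 and tumor skin 1, both of low spike-in slope. There 94.97% and 90.7% of all probes were well above background, so this says little about Cdh5 itself.

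Esam, an immunoglobulin-type adhesion molecule of endothelial and platelet junctions, lay at 7.85 and 6.79 in papilloma skin, 7.28 and 6.46 in tumor skin, 9.47, 9.44 and 9.68 in papilloma, and 8.07 and 8.70 in tumor. It rose by 2.21 (SE 0.36, adjusted p 0.0100) in papilloma and by 1.52 (SE 0.39, adjusted p 0.0471) in tumor, and neither lesion overlapped its skin. Of the tumor skin arrays the Esam spot was well above background on 1 of 2. Pecam1 lay at 7.79 and 7.68 in papilloma skin, 8.16 and 7.58 in tumor skin, 8.996, 9.16 and 9.40 in papilloma, and 8.53 and 8.22 in tumor. Its rise in papilloma was 1.45 (SE 0.21, adjusted p 0.00633), the lowest adjusted p among the 14 probes. In tumor its difference was 0.50 (SE 0.23, adjusted p 0.200), with a 95% confidence interval of -0.02 to 1.03. Unlike Cdh5, Pecam1 was well above background on all 9 arrays.

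The VEGF receptors were each read by several probes, and these did not move together. Kdr (VEGFR2, the main signaling receptor for VEGF-A in endothelium) had 2 probes of the same transcript, NM_010612, 1027 bases apart on mm9 (minus strand), and Flt1 (VEGFR1, which binds VEGF-A and placental growth factor) had 3 probes annotated to different transcripts. The first 30 of 60 bases of each are shown, since readings of the same gene name that part ways are best told apart by what the probes hybridize to. Kdr A_51_P316553 lies at chr5:76329309-76329368 with 35% G and C (10 spots, averaged), and Kdr A_55_P2094469 at chr5:76330395-76330454 with 55% (1 spot), where the median over all probes was 43.3%. Flt1 A_51_P398723 (NM_010228) lies at chr5:148373791-148373850, Flt1 A_55_P2166282 (ENSMUST00000110529) at chr5:148446872-148446931 and Flt1 A_52_P405145 (AK005502) at chr5:148465976-148466035.
Kdr A_51_P316553: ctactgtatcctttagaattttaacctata
Kdr A_55_P2094469: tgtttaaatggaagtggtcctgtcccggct
Flt1 A_51_P398723: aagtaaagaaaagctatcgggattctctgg
Flt1 A_55_P2166282: ggagggtactgccgttcctgtgtggtattt
Flt1 A_52_P405145: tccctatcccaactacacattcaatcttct

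Kdr A_51_P316553 lay at 7.26 and 6.77 in papilloma skin, 5.47 and 6.55 in tumor skin, 9.86, 8.98 and 8.98 in papilloma, and 6.51 and 7.66 in tumor. It rose in papilloma by 2.26 (SE 0.45, adjusted p 0.0243), and its tumor difference was 1.08 (SE 0.49, adjusted p 0.207). Papilloma stood clear of all other groups, while tumor and tumor skin overlapped. On tumor skin 2, 1 of its 10 spots was not well above background. The other Kdr probe, A_55_P2094469, lay at 12.55 and 12.65 in papilloma skin, 13.05 and 13.97 in tumor skin, 13.07, 12.17 and 12.47 in papilloma, and 12.19 and 12.22 in tumor. Its papilloma difference was -0.03 (SE 0.31, 95% confidence interval -0.75 to 0.69), and its tumor difference was -1.30 (SE 0.34, adjusted p 0.0507). With a value for Kdr taken as the median of its 2 probes, the papilloma difference was 1.11 (adjusted p 0.114) and was no longer called.

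Of the Flt1 probes, A_51_P398723 lay at 8.39 and 7.55 in papilloma skin, 6.80 and 7.15 in tumor skin, 10.40, 9.94 and 10.17 in papilloma, and 7.99 and 8.98 in tumor. It rose by 2.20 in papilloma (SE 0.34, adjusted p 0.00837) and by 1.51 in tumor (SE 0.37, adjusted p 0.0412), and neither lesion overlapped its skin. A_55_P2166282 lay at 8.76 to 9.27 in papilloma, 6.66 to 7.14 in papilloma skin, 6.79 to 7.77 in tumor and 6.38 to 6.65 in tumor skin. It rose by 2.07 in papilloma (SE 0.30, adjusted p 0.00658), and its tumor difference was 0.76 (SE 0.33, adjusted p 0.180). The remaining probe, A_52_P405145, stayed within 5.55 to 6.17 in all 9 columns, was well above background on 6 of 9 arrays and was not called in any comparison. Over the 9 columns the profile of the first probe correlated with the mean profile of the other members that passed the level minimum at r = 0.98, the second at 0.97 and the last at -0.02, and the Kdr probes at 0.95 and -0.41 (Pearson, a description over 9 columns that share their groups).

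The receptor tyrosine kinases Tie1 and Tek (Tie2) act as a pair in vessel maturation, and the array gave them different values. Tie1 lay at 6.40 and 5.86 in papilloma skin, 5.09 and 5.84 in tumor skin, 8.18, 7.28 and 7.79 in papilloma, and 6.03 and 6.59 in tumor. It rose in papilloma by 1.61 (SE 0.34, adjusted p 0.0282), and its tumor difference was 0.84 (SE 0.37, adjusted p 0.187). The mean level of Tie1, 6.56, includes papilloma, where it was highest, so the minimum of 6 was not independent of the rise. Tek stayed between 5.54 and 6.41 in all 9 columns, with differences of 0.21 (95% confidence interval -0.40 to 0.82) in papilloma and 0.26 (-0.41 to 0.93) in tumor. Its mean level of 5.99 lay just under the minimum of 6, so it could not be called, and in each skin group the Tek and Tie1 spots were well above background on 1 of 2 arrays. The difference between Tie1 and Tek was not tested.

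Endoglin, Eng, lay at 7.92 and 6.86 in papilloma skin, 6.05 and 6.13 in tumor skin, 9.11, 8.62 and 8.98 in papilloma, and 6.65 and 7.73 in tumor. The papilloma columns lay above the papilloma skin columns, at a difference of 1.52 (SE 0.38, adjusted p 0.0540) that just missed the threshold, and the tumor difference was 1.10 (SE 0.41, adjusted p 0.133). The spot was well above background on 1 of 2 tumor skin arrays and on all arrays of the other groups. The bases upstream of Tie1 (chr4:118489850-118490099, minus strand) and Eng (chr2:32646345-32646594, plus strand) in GRCm38.p6, from RefSeq, are given for comparison with Egfl7, with the same letters in capitals. They were chosen because their window ends at the outermost start of the gene.
Tie1 upstream 250 bases: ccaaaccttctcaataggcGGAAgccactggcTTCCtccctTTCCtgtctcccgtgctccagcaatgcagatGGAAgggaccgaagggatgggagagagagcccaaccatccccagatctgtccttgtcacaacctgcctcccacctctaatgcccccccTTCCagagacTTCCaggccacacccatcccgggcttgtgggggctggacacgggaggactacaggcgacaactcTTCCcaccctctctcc
Eng upstream 250 bases: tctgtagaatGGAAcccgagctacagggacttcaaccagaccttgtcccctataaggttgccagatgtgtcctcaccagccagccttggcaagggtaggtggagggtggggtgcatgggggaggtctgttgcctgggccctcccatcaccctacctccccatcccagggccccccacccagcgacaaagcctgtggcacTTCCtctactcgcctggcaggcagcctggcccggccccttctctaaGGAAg
Tie1 held 7 matches, and 3.82% of all windows held as many or more. Eng held 3, with 54.7% of all windows holding as many or more. The windows of Kdr and Flt1 held 4 each and that of Tek held 2. RefSeq windows were matched for 6 of the 10 genes, and those of Cdh5, Pecam1, Esam and Vwf were not used here.

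Von Willebrand factor, the adhesive glycoprotein of endothelial storage granules and platelets, had 2 probes 94.4 kb apart on chromosome 6. Vwf A_51_P103397 lay at 10.76 and 8.52 in papilloma skin, 7.74 and 7.44 in tumor skin, 10.33, 9.70 and 10.33 in papilloma, and 8.01 and 9.35 in tumor. The highest of these 9 values was that of papilloma skin 1, a column in doubt, which exceeded papilloma skin 2 by 2.24. The papilloma difference was 0.49 (SE 0.62, 95% confidence interval -0.95 to 1.92) and the tumor difference 1.09 (SE 0.68, adjusted p 0.351). In the quantile-normalized scanner signal the same probe read 6.09 and 7.86 in papilloma skin against 12.11, 9.92 and 9.38 in papilloma. Vwf A_55_P2169659 stayed between 6.16 and 7.11 in all columns, with differences of 0.42 (adjusted p 0.372) and -0.17 (adjusted p 0.729), and was well above background on 1 of 2 arrays of each skin.

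Arrays of the same group differed from each other in the members together. Papilloma skin 1 exceeded papilloma skin 2 for 13 of 14 probes with a median log2 difference of 0.72, while 46.8% of all probes were higher in it. Tumor 2 exceeded tumor 1 for 12 of 14 (median 0.85, 48.0% of all probes), and papilloma 1 exceeded papilloma 2 for 13 of 14 (median 0.43, 52.7%). The tumor skin columns had 7 probes in each order (median -0.01, 46.6%). Within slide 1 papilloma 1 was above papilloma skin 1 for 12 of 14 probes (median 1.41, 51.6% of all probes) and tumor 1 above tumor skin 1 for 10 of 14 (median 0.51, 49.1%), and within slide 2 papilloma 2 was above papilloma skin 2 for 13 of 14 (median 1.62, 48.0%). Tumor lay below papilloma for all 14 probes within slide 1 (median -2.24) and for 12 of 14 within slide 2 (median -0.78), where tumor was the higher for 46.9% and 49.0% of all probes. Slide 3 held tumor skin 2 and papilloma 3 only, so it gave no comparison of a lesion with its own skin.

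The scanner signal gave larger median differences of lesion against skin and no calls. After quantile normalization of the processed signal of 9 arrays, the median log2 difference of the 14 probes was 2.32 for papilloma against its skin (0.13 over all probes) and 1.94 for tumor against its skin (-0.04), with 12 of 14 positive in each. The limma fit on these values called none of the 14 probes and none of all 55155 probes tested, and 8 and 5 of the 14 had an unadjusted p under 0.05, against 9.01% and 2.61% of all probes. Cdh5 differed by 5.24 and 4.92 in these values, and Egfl7 by 3.81 and 3.25. Of the 8 probes called for papilloma, those of Esam and Pecam1 differed by less than in the table (1.17 against 2.21 and 0.96 against 1.45), but by more (4.62 and 1.82) without the 3 arrays of low spike-in slope. Without those arrays the medians were 3.06 and 2.24 and again none was called (smallest adjusted p 0.139 and 0.213). In the signal of 9 arrays Cdh5 lay at 3.46 and 5.05 in papilloma skin and 4.31 and 3.31 in tumor skin, against 10.75, 9.03 and 8.72 in papilloma and 9.34 and 8.11 in tumor. Since 1 of 2 spots in each skin was not well above background, the Cdh5 differences in these values have no firm size.

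**Figure D3:**
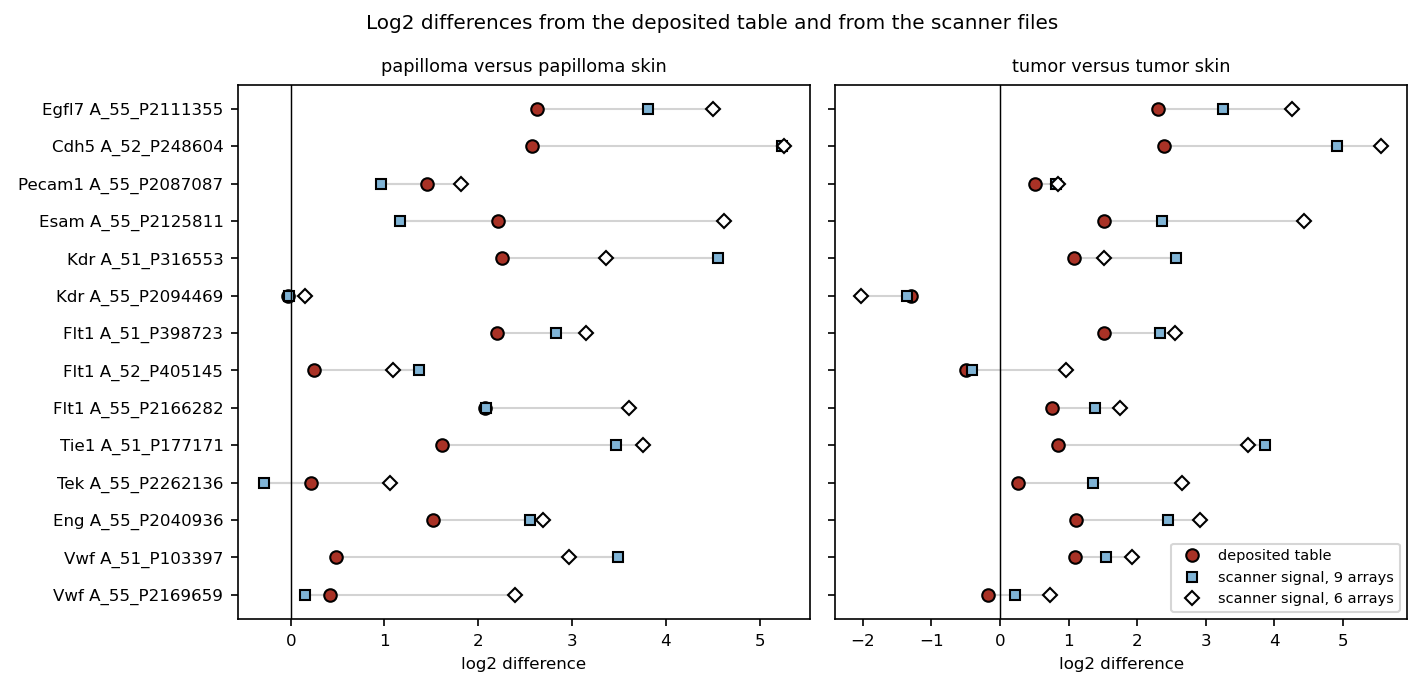
Log2 difference of each endothelial probe (x axis) from the deposited table (red circles), from the quantile-normalized scanner signal of 9 arrays (blue squares) and from the 6 arrays of full spike-in slope (white diamonds), for papilloma (left) and tumor (right) against their skins. Cdh5 moves from 2.57 to 5.24 and from 2.39 to 4.92 between table and scanner signal, and Kdr A_55_P2094469 stays near 0 in the first comparison.

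Other endothelial genes also rose in the lesions, although most of their probes were not called. Their lists were chosen for this tissue with earlier results of these data known, so their counts are no independent check of the members. Over all probes 2.18% were called higher and 1.00% lower in papilloma, and 2.71% higher and 1.51% lower in tumor. In tumor skin versus papilloma skin 0.122% were called lower, and in tumor versus papilloma 0.334%. Of 27 probes of surface and junction genes, 8 rose in papilloma (Cldn5, Ecscr, Emcn, Gpr116, Mmrn2, Plvap, Robo4 and Tm4sf1) and 5 in tumor (Gpr116, Mmrn2, Robo4, Tm4sf1 and Vcam1), with median log2 differences of 1.03 and 0.57 and 25 of 27 positive at each stage. Claudin-5 (Cldn5), a tight junction protein, differed by 2.33 (SE 0.33, adjusted p 0.00576) in papilloma, and Robo4, a guidance receptor of endothelium, by 2.74 (SE 0.44, adjusted p 0.0103) in papilloma and 2.34 (SE 0.49, adjusted p 0.0243) in tumor. Of 21 probes of transcription factors and Notch genes, 5 rose in papilloma (Epas1 with 2 probes, Notch4, Sox7 and Sox18) and 3 in tumor (Epas1, Erg and Notch4), with 19 and 15 of 21 positive. The level minimum also counts the columns where a gene is high. These were papilloma for Emcn, Sox7 and Sox18 and both lesions for the called Erg probe. Notch4, the Notch receptor of endothelium, differed by 2.26 (SE 0.17, adjusted p 0.000366) and 2.08 (SE 0.18, adjusted p 0.00129). Dim spots limit these skin values too. The spots of Cldn5, Emcn, Gpr116, Sox7, Sox18 and the called Erg probe were well above background on 1 of 2 arrays of each skin. Those of Notch4, Robo4, Ecscr, Epas1 A_55_P2053988 and Vcam1 A_51_P210956 were so on 1 of 2 tumor skin arrays. Vcam1, an adhesion molecule that inflamed endothelium puts out, fell in tumor skin versus papilloma skin by 1.74 (SE 0.19, adjusted p 0.0255) for A_51_P210956. Epas1 A_51_P250058 fell in tumor versus papilloma by 2.19 (SE 0.25, adjusted p 0.0122). The means of Epas1 A_55_P2053988 were 7.78 in papilloma and 6.87 in tumor. Epas1 A_55_P2077448 stayed within 10.94 to 11.88 in all 9 columns, with a lower mean in each lesion than in its skin. The other Vcam1 probe, A_52_P520495, had means of 5.49 in papilloma skin and 5.02 in tumor skin. The other Erg probe, A_55_P2113832, had means of 4.78 in tumor and 6.05 in tumor skin. It was well above background on 1 of 9 arrays.

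Among 20 probes of ligands and co-receptors, Angpt2, the Tek ligand that sprouting endothelium releases, rose in papilloma by 2.38 (SE 0.27, adjusted p 0.00255) and in tumor by 1.36 (SE 0.30, adjusted p 0.0294), and fell in tumor versus papilloma by 1.62 (SE 0.27, adjusted p 0.0499). The Angpt2 spot was well above background on 1 of 2 tumor skin arrays. Vegfa, the main ligand of Kdr and Flt1 and a gene that neutrophils also express, rose in both lesions, by 1.38 (SE 0.16) in tumor with 2 probes and by 1.00 (SE 0.14) in papilloma with 1. Acvrl1, the endothelial BMP9 receptor, rose in tumor skin versus papilloma skin by 1.03 (SE 0.17, adjusted p 0.0494), where 0.138% of all probes were called higher. In papilloma 2.18% of all probes were called higher and in tumor 2.71%, and 0.334% were called lower in tumor versus papilloma. The lymphatic markers gave no called probe among 5. An unadjusted limma p under 0.05 was found for 2 in papilloma and 3 in tumor, against 20.7% and 26.9% of all probes. All 5 differences were positive in papilloma (median 0.42) and 4 of 5 in tumor (median 0.61). Lyve1 had means of 6.90 in papilloma, 5.69 in papilloma skin, 6.31 in tumor and 5.05 in tumor skin. Its spot was well above background on 1 of 2 arrays of each skin. Pdpn A_55_P1961395 had means of 8.63, 7.68, 8.06 and 6.40 in the same order. Prox1, the factor that sets lymphatic identity, stayed at 4.64 to 5.16 and was well above background on 2 of 9 arrays.

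**Figure D4:**
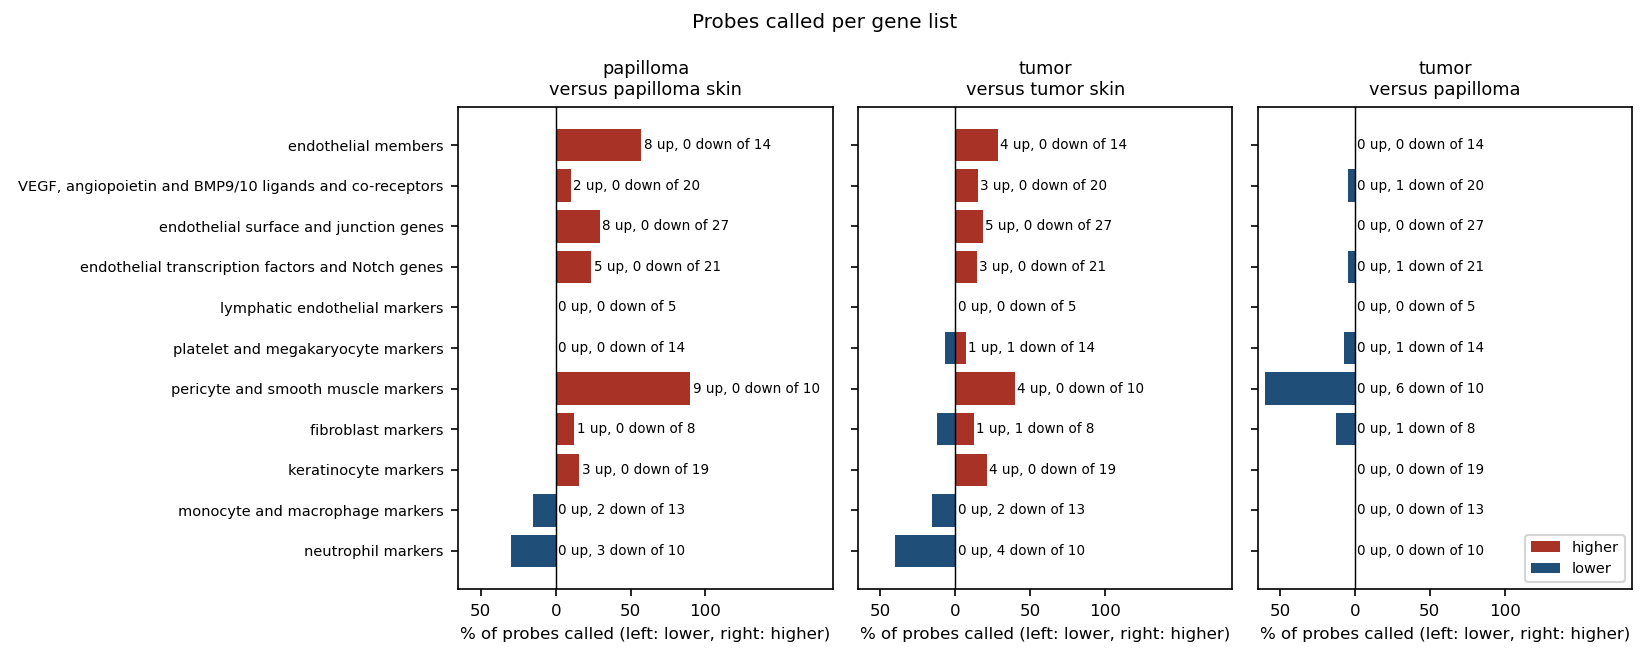
Percentage of probes called higher (red, right) or lower (blue, left) in each gene list (y axis) for 3 comparisons, with the counts written beside the bars. The endothelial members reach 8 of 14 and 4 of 14 probes called higher, and the pericyte and smooth muscle markers reach 9 of 10 and 4 of 10, with 6 of 10 called lower in tumor versus papilloma. Over all probes these shares were 2.18% and 2.71% called higher, and 0.334% called lower in tumor versus papilloma.

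Markers of other cells moved beside the endothelial genes. Over all probes 2.18% were called higher and 1.00% lower in papilloma, 2.71% and 1.51% in tumor, and 0.334% lower in tumor versus papilloma. Of 10 pericyte and smooth muscle markers, 9 rose in papilloma (median log2 difference 1.80) and 4 in tumor (median 0.25), and 6 fell in tumor versus papilloma (median -1.89). Their summed linear level was 13460 to 15260 in papilloma, 3693 to 4511 in papilloma skin, 4241 to 4604 in tumor skin and 3713 to 3875 in tumor. Such sums, here and in the other lists, weigh the brightest probes most, in this list Acta2 and Tagln. The median log2 level of the list was 9.03 to 9.37 in papilloma and 6.495 to 6.54 in papilloma skin. It was 7.58 to 7.585 in tumor and 5.99 to 6.58 in tumor skin. Pdgfrb, the PDGF receptor of pericytes, lay at 9.76, 9.72 and 10.08 in papilloma and at 7.85 and 7.87 in tumor, against 6.17 to 6.75 in skin. Of 8 fibroblast probes 1 rose in papilloma, at a median log2 difference of 0.58 and with 4 of 8 positive. In tumor 1 rose and 1 fell, at a median of 0.63 and with 6 of 8 positive. The collagen probes had higher means in papilloma than in its skin, and those of Dcn, Lum, Pdgfra and Dpt had lower ones. The summed level of the list was 38010 to 52100 in papilloma, 12830 to 26430 in papilloma skin, 5713 to 15240 in tumor and 8369 to 9104 in tumor skin. Of 19 keratinocyte probes 3 rose in papilloma and 4 in tumor, with sums of 20170 to 45890 and 23490 to 73660 against 9950 to 19760 in skin. No marker of these lists was at 0, since the values are fluorescence, and the part of such cells in the endothelial values was not tested.

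Markers of blood cells moved otherwise, where 1.00% of all probes were called lower in papilloma and 1.51% in tumor, and 2.18% and 2.71% higher. Of 10 neutrophil probes, 3 fell in papilloma (Ltf, Mmp8 and Ngp, all granule proteins) and 4 in tumor (these and Ly6g), and the summed level was 813400 to 819500 in papilloma, 911600 to 943200 in tumor, 962500 to 988700 in papilloma skin and 1110000 to 1135000 in tumor skin. Of 13 monocyte and macrophage probes 2 fell at each stage, both of Emr1, the gene of a macrophage surface receptor, with sums of 36070 to 41610 in papilloma and 35090 to 40970 in tumor against 51390 to 64590 in skin. Platelet and megakaryocyte markers, which matter for Vwf, Esam and Pecam1, had no called probe among 14 in papilloma (2 had an unadjusted limma p under 0.05, against 20.7% of all probes) and 1 in each direction in tumor, Ppbp higher and Itgb3 lower. Their summed level was 2712 to 3787 in papilloma, 3072 to 3878 in papilloma skin, 2393 to 5452 in tumor and 2376 to 2484 in tumor skin. The part of these shifts in the endothelial values was not tested.

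Over all genes, the profiles most like the members were ranked by Pearson's r over the 9 columns with the mean standardized profile of the 12 member probes that passed the level minimum, 1 probe per gene name. The first 10 were Hspb8, Serpinh1, Igfbp2, Gdf15, Rpl39l, Caskin2, Pcolce, Emcn, Col15a1 and Rbms3, with r from 0.993 to 0.986. Emcn (endomucin) is a sialoprotein of endothelium from the surface list, Serpinh1 is a collagen chaperone and Pcolce an enhancer of procollagen processing. These values describe 9 columns that share the same 4 groups, and no test was attached to them.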

How the data were processed

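Gene expression was measured on 9 one-color Agilent mouse arrays. The authors deposited, for each array, scanner output with background-subtracted fluorescence intensity per spot, and a table with a single log2 value for every probe on each array. Per the methods the data were quantile normalized in limma and the chip effect was removed with ComBat, and which of these steps the table holds is not stated. Groups were taken from the labels. The members and lists were chosen with earlier results of these data known.

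The deposited log2 values were fitted as given for 55681 probes with limma 3.58.1 in R 4.3.3, using version 1.17.8 of data.table, with 4 group means and 5 residual degrees of freedom, so the number of arrays limits the precision. The methods call arrays of a group biological replicates, and each was a pool, so p-values measure the spread between pools and not between mice. Plots were drawn with matplotlib 3.10.9, and tables with pandas 2.3.3 and numpy 2.4.6 under Python 3.11.15. On slide 1 were all arrays numbered 1, on slide 2 papilloma skin 2, papilloma 2 and tumor 2, and on slide 3 tumor skin 2 and papilloma 3. The fit was tested on simulated data. All member probes are named, and other genes only from the 10 further lists (endothelial surface and junction genes, transcription factors and Notch genes, ligands and co-receptors, lymphatic, platelet, pericyte, fibroblast, keratinocyte, monocyte and neutrophil markers) where called, where a sentence is about a list's counts, or among the 10 most like profiles. Markers given only as levels (S100a8, S100a9, Csf3r, Prox1, Lyve1, Pdpn) check the cell type.

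The alternatives were scanner intensity with quantile normalization, with and without slide as a block, scaling to the 75th percentile, normexp background with an offset of 50, slide or replicate number as a block in the table, leaving out papilloma skin 1 and tumor 1, no level minimum, a filter on dim probes, medians per gene name, and leaving out each of the 9 columns. After the data were seen, the slide block with papilloma 2 and papilloma 3 exchanged and the scanner fit without 3 arrays of spike-in slope under 0.9 were added. Outlier-flagged spots were left out and spots of 1 probe averaged. Promoters and the microRNA come from RefSeq tables of GRCm38.p6, and probe places are mm9 as in the scanner files.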

Additional observations from a re-analysis of the deposited data

Results flagged for a closer look

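The interaction of lesion and stage (tumor effect minus papilloma effect) passed the limma threshold for 3 of the 10 pericyte and smooth muscle markers that moved beside the endothelial genes, and for none of the 14 endothelial probes (4 had an unadjusted p under 0.05, against 14.7% of all probes). The log2 difference of effects was -2.48 for Cspg4 (NG2 proteoglycan of pericytes, adjusted p 0.0343), -2.13 for Tagln (a smooth muscle actin-binding protein, adjusted p 0.0343) and -2.06 for Acta2 (smooth muscle actin, adjusted p 0.0464). The limma test of the interaction marked these 3 results, where 0.0144% of all probes were called lower. All 3 kept their sign in each alternative that was fitted on probes, at -2.64 to -0.96 for Cspg4, -2.40 to -1.29 for Tagln and -2.26 to -0.68 for Acta2. They stayed called without the level minimum and with the filter on dim probes, and in none of the other alternatives, such as slide as a block (adjusted p 0.741) or leaving out any 1 of the 9 columns. The part of pericytes in the endothelial values was not tested.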

How the results depend on the processing

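Of the 12 called log2 differences of endothelial probes, each under 21 alternatives, all 252 values kept their direction and 114 stayed called. Some of these alternatives could not change a difference, so their agreement in direction was fixed in advance. They left out a column of a group outside the comparison, dropped the level minimum, filtered dim probes or took medians of genes with 1 probe. The count of called probes in papilloma versus papilloma skin was 8. It was 0 with scanner intensities (quantile normalization with or without slide as a block, 75th percentile scaling, normexp background, or without the 3 compressed arrays), 0 with slide as a block in the table, 2 with slide as a block and papilloma 2 and 3 exchanged, 5 without papilloma 1, 5 without papilloma 3, and 1 to 9 when each column was left out, where a lone array was assumed to vary like the other groups. In tumor versus tumor skin the count was 4, and it was 0 in all of these settings of scanner or slide and 0 to 4 when each column was left out, which includes 1 lower call (Kdr A_55_P2094469) without papilloma 1 and without tumor skin 1. With the replicate block both counts were 0. The correlation of same-numbered deviations was -0.96 to 0.53. It cannot show whether the numbers pair the samples. Most groups had 2 arrays, all arrays numbered 1 shared a slide, and the methods state that a chip effect was removed. In tumor versus papilloma 0 probes were called, 1 with the filter on dim probes (Flt1 A_55_P2166282) and 1 with medians per gene name. Tumor skin versus papilloma skin and the difference between the stages gave 0 member probes in every alternative. The scanner fits called 0 of all probes for either lesion against its skin, while the median of the 14 probes for papilloma was 1.62 to 3.06. Scaling to the 75th percentile moved the median of all probes to -0.41 there and to -0.15 in tumor versus tumor skin, beside member medians of 2.47 and 1.76. The cause was not tested. Dim spots in the skin groups limit what the signal over background can show for Cdh5, Tek, Tie1, Vwf A_55_P2169659 and Flt1 A_52_P405145 in both skins and for Esam and Eng in tumor skin.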
